A study of Rattus norvegicus with 3 samples.

Results

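The CXC and CX3C chemokines and receptors examined here were 10 rat genes chosen by name: the ligands Cxcl1, Cxcl2, Cxcl9, Cxcl10, Cxcl12, Cxcl13, Cxcl16 and Cx3cl1, and the receptors Cxcr4 and Cx3cr1. Of these, 9 had a probe on the array design used for the uninjured and day 21 arteries, among 13833 genes with a symbol there. On the probes that all 3 arrays carried, 6 of the 10 were present, among 7788 genes. All members had at least 1 probe on some array, 17 probes in all, and Cxcl16 was on the day 7 design only. The study used balloon injury, in which an inflated catheter strips the endothelium and stretches the arterial wall, in male Wistar rats. RNA of the whole common carotid artery was run on Agilent arrays that read a single dye, Cy3. The 3 arrays analysed were 1 uninjured artery, 1 artery 7 days after injury and 1 artery 21 days after injury. The design text speaks of independent experiments with different rats at each time, of which 1 array a time was analysed here.

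Chemokines are small secreted proteins that steer leukocytes along a concentration gradient by binding G protein-coupled receptors on their surface. The CXC ligands are named for the single residue between their first cysteines, and the CX3C ligand Cx3cl1 (fractalkine) sits on a mucin stalk in the membrane of endothelial and smooth muscle cells until proteases release it. In the injured artery these molecules are known for drawing neutrophils, monocytes and lymphocytes to the wall, and the pair of Cxcl12 and Cxcr4 for recruiting progenitor cells during neointima formation.

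Promoter letters of 4 ligands are shown of the neutrophil-attracting pair, Cxcl1 and Cxcl2, and the interferon-inducible pair, Cxcl9 and Cxcl10, whose day 21 values are set side by side below. Each sequence is the 250 bases before the RefSeq gene start on build GRCr8, written 5′ to 3′ on the gene's own strand. Capitals mark the NF-kappaB consensus and, at the 5′ end of Cxcl10, an ISRE-like run of the form TTTCNNTTTC read on the opposite strand. The Cxcl1 window is chr14:17479322-17479571 on the minus strand and the Cxcl2 window chr14:17467256-17467505 on the minus strand. The Cxcl10 window is chr14:15988816-15989065 on the plus strand and the Cxcl9 window chr14:16006916-16007165 on the plus strand.
Cxcl1: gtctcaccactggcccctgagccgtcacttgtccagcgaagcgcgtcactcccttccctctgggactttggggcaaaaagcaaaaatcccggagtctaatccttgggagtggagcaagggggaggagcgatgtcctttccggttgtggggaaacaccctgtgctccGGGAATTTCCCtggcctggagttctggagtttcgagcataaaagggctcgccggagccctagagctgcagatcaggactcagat
Cxcl2: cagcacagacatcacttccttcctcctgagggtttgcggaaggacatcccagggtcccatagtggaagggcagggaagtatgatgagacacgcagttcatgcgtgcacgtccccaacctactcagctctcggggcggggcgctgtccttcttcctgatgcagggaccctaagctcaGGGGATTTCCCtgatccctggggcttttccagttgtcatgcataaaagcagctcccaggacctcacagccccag
Cxcl10: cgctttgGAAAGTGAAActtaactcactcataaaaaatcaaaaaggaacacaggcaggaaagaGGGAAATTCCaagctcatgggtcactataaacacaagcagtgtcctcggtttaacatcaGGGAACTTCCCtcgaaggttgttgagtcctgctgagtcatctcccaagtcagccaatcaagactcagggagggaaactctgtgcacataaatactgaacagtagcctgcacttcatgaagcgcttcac
Cxcl9: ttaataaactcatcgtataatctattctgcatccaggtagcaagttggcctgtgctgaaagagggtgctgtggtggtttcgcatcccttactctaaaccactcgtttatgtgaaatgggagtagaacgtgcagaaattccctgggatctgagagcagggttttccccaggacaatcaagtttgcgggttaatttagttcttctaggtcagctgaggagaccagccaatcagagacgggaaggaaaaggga

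The NF-kappaB consensus was present in 3 of the 10 members' windows, those of Cxcl1, Cxcl2 and Cxcl10, and in 6.33% of 33469 promoter windows of the same length. In Cxcl1 it began 84 bases before the start and in Cxcl2 74 bases before it. Both strands were searched, and matches on the 2 strands or to the looser form can overlap. This consensus was added after the matches of the looser form GGGNNNNNCC had been seen. The looser form was in 5 of 10 members (Cxcl9 and Cxcl13 besides) and in 42.3% of all windows. The ISRE-like letters were in 1 of 10 members, Cxcl10, and in 3.41% of windows. The GAS form TTCNNNGAA was in 0 of 10 members and in 7.67% of windows. A match is a description of letters and no record of binding.

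Each group was 1 array, so no test between groups could be made and every difference below is between 2 arrays. Values are Agilent processed signals (background-subtracted spot brightness), and the arrays differed in overall brightness: the 75th percentile of the signal over all probes was 49.6 for uninjured, 209.7 for day 7 and 135 for day 21. A raw signal can therefore be higher on an array while the ratio is lower. Ratios are log2 differences after each array's 75th percentile was subtracted. For day 21 against uninjured the percentile was taken over the 40989 usable probes of their common design, and for day 7 over the 10583 usable probes shared by all arrays. The error after ± is a technical SD from replicate spots of a probe on an array (median 0.109 to 0.206 on the log2 scale) and does not cover the spread between animals. Of the probes, 59.8% to 76.5% were well above background on an array and 0 were saturated. A gene not well above background on 1 array is given as a lower bound. Medians of the members, of gene lists and of all genes count these bounds as values, unless said otherwise. The day 7 array had another design, another scan and another version of the scanner software than the uninjured and day 21 arrays, which came from 1 scan, so these cannot be told apart from the time point in the day 7 comparisons. The uninjured array is shared by both comparisons with injury.

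The tissue label was checked against smooth muscle markers. All 8 with a probe on the common design were well above background on the uninjured and day 21 arrays, and 8 of 8 were at least 2-fold lower at day 21, among them Myh11, smooth muscle myosin, at -2.69 ± 0.14 and Cnn1, calponin, at -3.13 ± 0.30. At day 7, 3 of 4 measured were at least 2-fold lower, with Lmod1 at 0.30 ± 0.32. In whole-artery RNA, fewer cells of a type and less RNA per cell cannot be told apart.

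At day 21, 6 of the 9 measured members were at least 2-fold higher than in the uninjured artery, against 9.9% of 11000 measured genes. They were the neutrophil-attracting ligands Cxcl1 and Cxcl2, the B cell-attracting ligand Cxcl13, Cxcl12, its receptor Cxcr4, and the fractalkine receptor Cx3cr1. None (0 of 9) was at least 2-fold lower, against 14.6% of genes. The members were chosen with earlier results of these data known, so the shares here and below are a description. The median of the members was 2.39 on the log2 scale, beside -0.17 over all measured genes. Of the 7 members whose signal cleared background on each of these arrays, 5 passed 2-fold upwards, against 9.11% of 9420 genes, and 0 downwards, against 13.7%. The scaling moved the balance of calls over all genes: 40.5% of them were higher as reported, 74.6% under median scaling, 59.8% under quantile and 69.7% under cyclic loess normalization.

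At day 7, 2 of the 6 measured members, Cxcl12 and Cxcr4, were at least 2-fold higher than in the uninjured artery, against 20.1% of 6708 measured genes. Cx3cl1, 1 of 6, was at least 2-fold lower, against 16.8%. The median of the members was 0.41, beside 0.12 over all measured genes. Both counts lay within 1 gene of what the background share gives for 6 genes. Of the calls over all genes, 54.4% were higher as reported, 31.0% under median scaling, 41.0% under quantile normalization and 6.71% with own-design scaling (every array scaled over all its own probes).

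From day 7 to day 21, 4 of 6 members were at least 2-fold higher (Cxcl1, Cxcl12, Cxcr4 and Cx3cl1), against 10.5% of 6868 measured genes, and 0 of 6 were at least 2-fold lower, against 26.2%. All 6 cleared background on each of these arrays, where the shares over 5635 genes were 10.7% higher and 20% lower. The median of the members was 1.39, beside -0.25 over all genes. Of the calls over all genes, 28.6% were higher as reported, 53.8% under median scaling, 56.8% under quantile normalization, 51.2% under cyclic loess and 90.4% with own-design scaling.

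**Figure D1:**
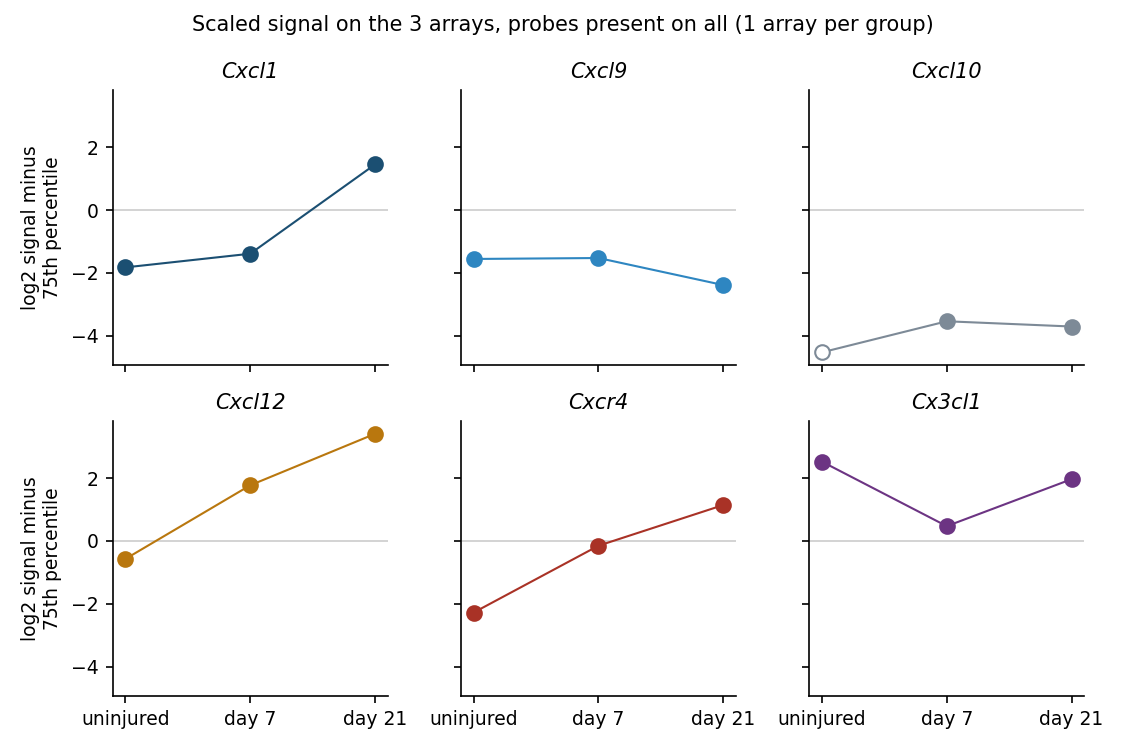
Scaled log2 level (vertical axis, relative to the 75th percentile of the shared probes) of the 6 members with a probe on all 3 arrays, by array (horizontal axis). Each point is 1 array and each line 1 gene. Cxcl1 lies at -1.82, -1.39 and 1.45 for uninjured, day 7 and day 21, while Cx3cl1 lies at 2.52, 0.47 and 1.97.

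Cxcl1, a ligand of the neutrophil receptor Cxcr2, had a signal of 35.8 in the uninjured artery, 88.1 at day 7 and 1050.4 at day 21. The day 21 artery stood apart from the other two arrays. The day 7 value was the mean of 8 spots, which ranged from 79.4 to 98.0. The ratio was 0.44 ± 0.22 at day 7, above that of 67.0% of measured genes, and it ranged from -0.78 to 0.45 over the processing alternatives, so its direction at day 7 was not settled. At day 21 it was 3.42 ± 0.25, a 10.73-fold difference from the uninjured array that exceeded the ratio of 98.8% of measured genes. From day 7 to day 21 it was 2.84 ± 0.14, or 7.17-fold, above 99.6% of genes.

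Cxcl2, also a ligand of Cxcr2 and a product of activated macrophages, had a signal of 54.3 in the uninjured artery and 1227 at day 21. The ratio was 3.05 ± 0.21, or 8.27-fold, above that of 98.4% of measured genes. Cxcl10, the third member whose window above carries the NF-kappaB consensus, had only a lower bound of 1.29-fold at day 21. A lower bound cannot tell whether its value was like those of Cxcl1 and Cxcl2. Of the neutrophil markers measured beside them, 1 of 6 was past 2-fold higher then (median 0.82): the iron-binding Lcn2, at 3.53 ± 0.38, a value named after it was seen. The calprotectin subunits were within 2-fold, S100a8 at 0.90 ± 0.39 and S100a9 at 0.36 ± 0.35. Csf3r, a neutrophil growth factor receptor, was at a bound of at least 1.47-fold, and Fcnb, a ficolin, at 0.82 ± 0.64. At day 7, when Cxcl1 was at 0.44, 4 of 5 neutrophil markers were past 2-fold (median 2.40), S100a8 at 2.40 ± 0.32 and S100a9 at 2.35 ± 0.21. The Cxcr2 receptor itself was not well above background on the uninjured or the day 21 array.

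Cxcl9, an interferon gamma-inducible ligand of the T cell receptor Cxcr3, had signals of 43.2, 80.0 and 73.3 in uninjured, day 7 and day 21 arteries. After scaling it was close to the bulk of genes at day 7, with a ratio of 0.03 ± 0.30 that took the other sign in 7 of 10 alternatives. At day 21 it was -0.68 ± 0.35, above the ratio of only 24.7% of measured genes, and kept its sign in 10 of 10 alternatives. Cxcl10, which shares the receptor, had a signal of 5.50 in the uninjured artery, not well above background, 19.8 at day 7 and 29.4 at day 21. Its lower bounds against uninjured were 1.30-fold at day 7 and 1.29-fold at day 21, and between the injured arteries it was -0.17 ± 1.23, an error wider than the difference. As lower bounds, these do not show that Cxcl10 stayed under 2-fold. Over the alternatives its day 21 value ranged from 0.21 to 1.84 and passed 2-fold in 3 of 9, among them cyclic loess at 1.14. Cxcl9 was within 2-fold at both times as reported, and at -1.19 at day 7 with own-design scaling. T cell markers beside them were 3 of 8 at least 2-fold higher at day 21 (median 0.77, summed scaled level 4.19 uninjured and 13.8 at day 21). The antigen receptor subunits Cd3d and Cd3g were at 0.77 ± 0.38 and 2.14 ± 0.26, so subunits of 1 complex gave unequal values. The subunit Cd3e, dim with signals of 8.97 and 17.5, was at -0.49 ± 0.67. The coreceptor Cd8a was at least 13.1-fold higher. The part of T cells in the Cxcl9 and Cxcl10 values was not tested.

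Cxcl12, the homeostatic ligand of Cxcr4 made by stromal and smooth muscle cells, was read by probes to 2 RefSeq transcripts. The probe present on all arrays had signals of 85.3, 786 and 4076 in uninjured, day 7 and day 21 arteries, and the level stepped up at each time. Its ratio was 2.34 ± 0.22 at day 7 (5.08-fold, above 97.01% of genes) and 1.64 ± 0.16 from day 7 to day 21 (3.11-fold, above 96.0%). The brighter probe, on the common design only, had signals of 369.8 and 5299 for uninjured and day 21, and a ratio of 2.39 ± 0.15, or 5.25-fold. At day 21 the dimmer probe gave 4.13 ± 0.24, so both probes put the day 21 artery higher and differed in size. In the authors' deposited table a row of this gene gave -1.86 at day 7, but it sets a day 7 probe against another probe on the uninjured array. The row of the shared probe in the authors' deposited table gave 1.61.

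Cxcr4, the receptor of Cxcl12 on leukocytes and progenitor cells, had signals of 26.2, 207 and 847 and followed the same order as its ligand. The ratio was 2.13 ± 0.22 at day 7 (4.37-fold, above 96.3% of genes) and 3.57 ± 0.28 at day 21 (11.9-fold, above 99.0%). From day 7 to day 21 it was 1.29 ± 0.21, or 2.45-fold. A further probe read 2.43 in the uninjured artery, not well above background, and 330.3 at day 21, a bound of at least 14.6-fold. With normexp background correction, which adds an offset and pulls dim probes together, the day 7 ratio was 0.89, and with own-design scaling it was 0.91, both no longer past 2-fold. Ackr3, the atypical receptor that binds and removes Cxcl12, had signals of 95.5, 55.8 and 664, and its ratio was -1.64 ± 0.40 at day 7 and 1.35 ± 0.35 at day 21. It was thus lower than in the uninjured artery at one time and higher at the other, which Cxcl12 and Cxcr4 were not.

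Cxcl13, which draws B cells through Cxcr5, had a signal of 1.82 in the uninjured artery, not well above background, and 154 at day 21. This puts the day 21 artery at least 6.81-fold above the uninjured one. A probe on the day 7 design only read 4.53 and was not well above background there. B cell markers beside it were 1 of 3 at least 2-fold higher at day 21: Pou2af1, a B cell transcription coactivator, at 2.36 ± 0.26, with Cd79b at 0.45 ± 0.37 and Blk at a bound of at least 1.09-fold. The B cell marker Cd22 was not well above background at day 21, and the receptor Cxcr5 was at -0.26 ± 0.31 with signals of 21.8 and 49.8. The part of B cells in the Cxcl13 value was not tested.

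Cx3cl1, the membrane-bound ligand of Cx3cr1, was the member lower at day 7. Its signals were 730.1, 319 and 1498 in uninjured, day 7 and day 21 arteries. The ratio was -2.05 ± 0.12 at day 7, 4.15-fold lower, below which lay 3.70% of measured genes, and it remained past 2-fold lower in 10 of 10 alternatives (-3.27 to -1.45). At day 21 it was -0.41 ± 0.14, with the sign turned to 0.07 by median scaling, and from day 7 to day 21 it was 1.49 ± 0.14, or 2.82-fold higher, falling to 0.80 and under 2-fold with normexp background correction. A dimmer probe on the common design gave -1.06 ± 0.30 at day 21, with signals of 35.8 and 46.9, so the 2 probes disagreed on whether the gene was past 2-fold. Endothelial markers, by contrast, were past 2-fold higher in 7 of 7 measured at day 7 (median 1.87), the receptors Tek at a bound of at least 2.60-fold and Kdr at 1.53 ± 0.22, and Emcn and Cldn5 at 2.59 ± 0.37 and 2.88 ± 0.22. At day 21, 7 of 9 were higher, with the junction gene Cdh5 at -0.21 ± 0.33 and Pecam1 at a bound of at least 1.67-fold. Smooth muscle markers, of which 3 of 4 at day 7 and 8 of 8 at day 21 were lower, had a summed scaled level of 172 uninjured and 37.2 at day 7. The part of either cell type in the Cx3cl1 values was not tested.

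Cx3cr1, the fractalkine receptor of monocytes and macrophages, had signals of 10.5 in the uninjured artery and 64.2 at day 21. The ratio was 1.16 ± 0.60, or 2.23-fold, above that of 92.4% of measured genes. The gene was dim on both arrays, and with normexp background correction the ratio was -0.03. A separate probe on the day 7 design read 1851, which has no counterpart on the other arrays. The authors' deposited table sets these probes in 1 row, at 4.03, 10.91 and 5.84 on its log2 scale for uninjured, day 7 and day 21. Cxcl16, a transmembrane ligand of Cxcr6 that also takes up oxidised lipoprotein, was measured at day 7 only, with a signal of 1276.

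**Figure D2:**
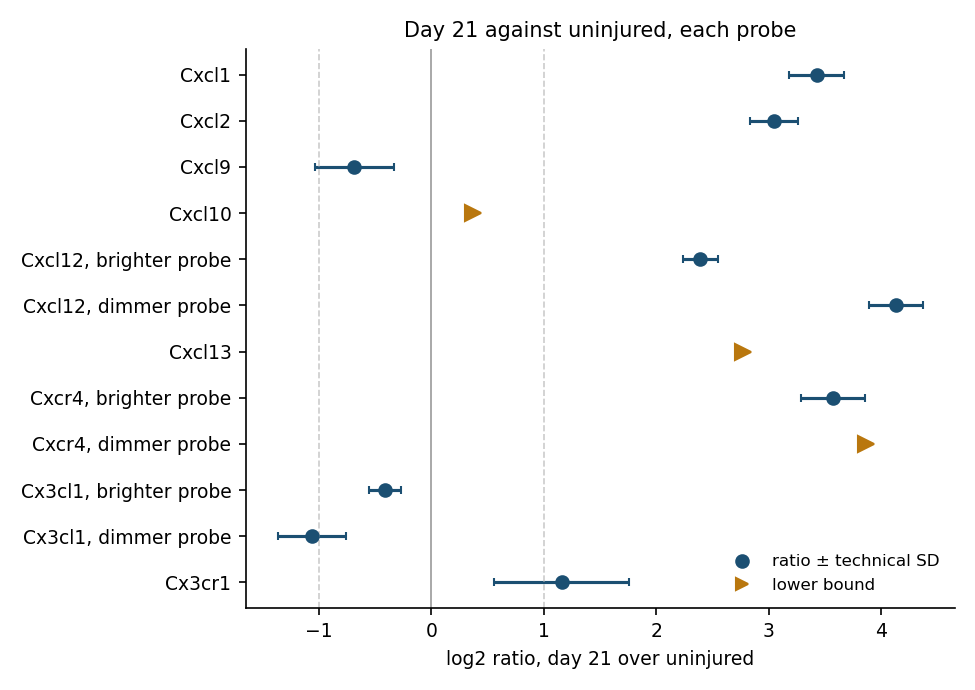
Log2 ratio of day 21 over uninjured (horizontal axis) for every member probe on the common design (vertical axis). Circles are ratios with the technical SD as bars, and arrowheads are lower bounds where the uninjured signal was not well above background. Cxcr4 and Cxcl1 lie at 3.57 and 3.42, and Cxcl9 and both Cx3cl1 probes lie below 0.

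Macrophage and monocyte markers were read beside the members at each time. At day 21, 15 of 15 measured were past 2-fold (median 4.31), and the summed scaled level over 16 genes was 66.4 uninjured and 2270.4 at day 21. Cd68, a lysosomal marker, was at 3.92 ± 0.14, the growth factor receptor Csf1r at 2.30 ± 0.28, Adgre1 at 4.13 ± 0.25 and the endotoxin coreceptor Cd14 at 3.92 ± 0.25. At day 7, 10 of 11 were past 2-fold (median 3.01), and the sum over 11 genes was 10.1 uninjured and 133 at day 7. In that comparison Csf1r was at 1.20 ± 0.19, Adgre1 at 2.89 ± 0.24, Cd14 at 3.21 ± 0.25 and the integrin Itgam at a bound of at least 10.1-fold. From day 7 to day 21, 7 of 11 were past 2-fold, with Csf1r at 0.95 ± 0.24 and Adgre1 at 1.09 ± 0.14. Cd163 was the only one of the 16 not well above background at day 21. The part of these cells in the member values was not tested.

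The other cell types the artery sample could hold were read in the same way. Fibroblast markers had 2 of 7 higher and 1 of 7 lower at day 21 (median -0.70), with the proteoglycan Dcn at -0.73 ± 0.15, Lum at 2.19 ± 0.15, Pdgfra at 1.40 ± 0.17 and the collagen Col1a1 at -0.80 ± 0.14. Schwann cell markers had 4 of 4 at least 2-fold higher at day 7 (median 4.27), such as Sox10 at 4.10 ± 0.19 and Ngfr at 4.75 ± 0.19, while at day 21 0 of 5 were higher and 1 lower. Adipocyte markers had 2 of 3 higher at day 21, Fabp4 at 3.91 ± 0.27 and Cfd at 2.29 ± 0.16, with Adipoq at 0.43 ± 0.36. Skeletal muscle markers had 4 of 6 lower at day 21, such as Ckm at -4.01 ± 0.26 and Acta1 at -2.26 ± 0.33, with Tnnt3 at 0.56 ± 0.48. At day 7 they went both ways, with Acta1 at -2.45 ± 0.48 and Actn3 at 2.49 ± 0.23 (median -1.71). Markers of neighbouring tissue thus differed between the arrays. Their part in the member values was not tested.

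**Figure D3:**
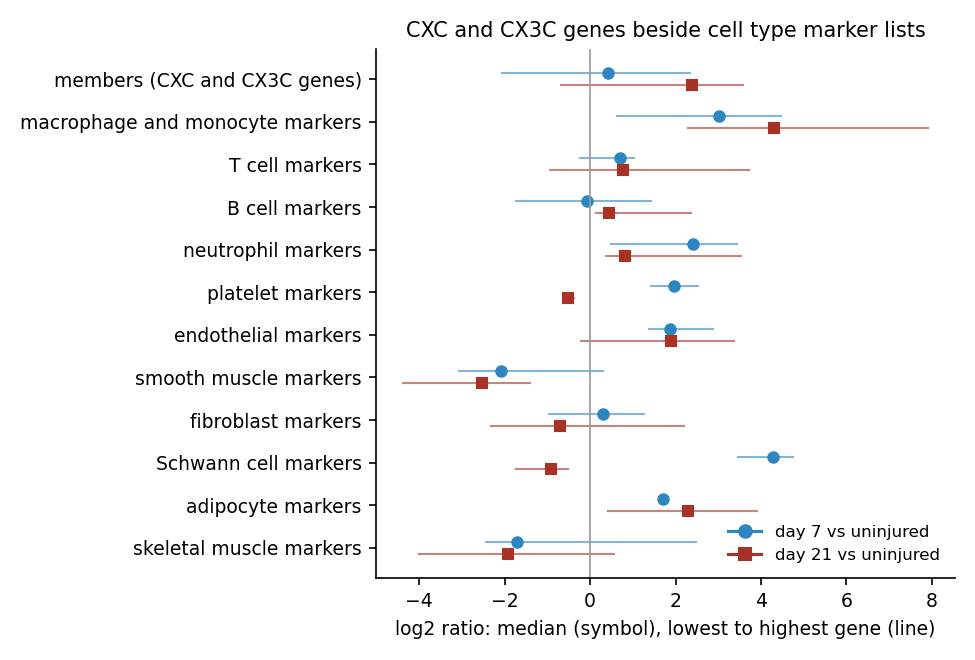
Median log2 ratio against uninjured (symbols) and the range from the lowest to the highest gene (lines) of the members and each marker list, for day 7 (circles) and day 21 (squares). Macrophage markers have medians of 3.01 and 4.31, above the members' 0.41 and 2.39, and smooth muscle markers lie at -2.10 and -2.54.

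Of 14 further CXC and CX3C genes listed, 12 had a probe. At day 21, 2 of 10 measured were at least 2-fold higher and 2 lower (median 0.29), against 9.9% and 14.6% of all measured genes. At day 7, 2 of 4 were higher and 1 lower (median 0.91), against 20.1% and 16.8%. Without the bounds, the median was -0.30 over 6 genes at day 21 and 1.38 over 3 genes at day 7. Cxcl14, a ligand expressed in epithelia and fibroblasts, had a signal of 8.56 in the uninjured artery, not well above background, and 384 at day 21, at least 16.4-fold higher. The platelet ligand Pf4 had signals of 2261, 10827 and 11896, with ratios of 1.40 ± 0.09 at day 7 and 0.95 ± 0.14 at day 21. Ppbp, the other platelet ligand, had signals of 12.9, 62.7 and 27.6, with ratios of 1.38 ± 0.32 and -0.35 ± 0.58. Ppbp was thus past 2-fold at day 7 only. Pf4 lay within its error of 2-fold at day 21, where the authors' deposited table gave 1.09 for the same probe. The platelet markers Gp9 and Treml1 were at 2.51 ± 0.23 and 1.42 ± 0.23 at day 7 and at -0.37 ± 0.31 and -0.63 ± 0.30 at day 21. The part of platelets was not tested. Cxcl6, a further neutrophil-attracting ligand, was at -1.26 ± 0.56 at day 21 with signals of 12.7 and 14.5. Both lie near the lowest signals well above background on these arrays (8.31 and 10.3), so its direction is not settled. The mucosal ligand Cxcl17 was at -1.12 ± 0.32 with signals of 44.2 and 55.5. Cxcl11, the third ligand of Cxcr3, was well above background on the day 7 array only, with signals of 10.1, 24.9 and 14.7. It was given as at least 1.36-fold higher at day 7 than uninjured (technical SD 1.12 on the log2 scale). From day 7 to day 21 it was given as at least 2.81-fold lower (technical SD 1.05). The lowest signals well above background were 8.31, 10.4 and 10.3, so these values rest on a probe near the floor. The receptors were dim. Cxcr3 and Cxcr6 were well above background on the day 21 array only, at bounds of at least 1.23-fold and 1.45-fold over uninjured. Cxcr1 had a day 21 signal of 20.2 and no bound above 1.

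Genes of the pathways around the chemokines were read from gene lists. Over all measured genes, 9.9% were at least 2-fold higher and 14.6% lower at day 21. At day 7 these shares were 20.1% and 16.8%. They stand beside the counts of these lists and of the marker lists above. Of the proteases that cut these ligands, 4 of 8 passed 2-fold upwards at day 21 and 4 of 6 at day 7 (medians 1.15 and 2.52). Without the bounds, the medians were 0.60 and 1.42. The same genes passed at both times: Mmp9, Mmp12, Ctsk and Ctss. Mmp9, a gelatinase that cleaves Cxcl12, had lower bounds of 6.63-fold at day 7 and 9.55-fold at day 21, and Mmp12, the macrophage elastase, one of 138-fold at day 7. Adam17, a sheddase of Cx3cl1, was at 0.05 ± 0.24 and 0.13 ± 0.37, and Mmp2 at 0.52 ± 0.12 and 0.10 ± 0.04. Adam10, also on the list, had no named probe and was not measured. Dpp4, which trims Cxcl12, was at a bound of at least 1.49-fold at day 21. The 2-fold calls therefore fell on these 4 genes rather than on Adam17 or Mmp2.

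Of the genes that carry or end chemokine receptor signals, a list that includes Cxcr4, 6 of 15 were higher and 1 lower at day 21 (median 0.85). At day 7, 2 of 8 were higher and 2 lower (median 0.84), near the shares over all genes of 20.1% and 16.8%. Without the bounds, the medians were 0.57 at day 21 and 0.84 at day 7. The G protein subunits Gnai2, Gnai3 and Gnb1 were at 0.05 ± 0.48, -0.38 ± 0.28 and 0.19 ± 0.20 at day 21. The arrestin Arrb1 was at -1.04 ± 0.35 at day 7 and -0.53 ± 0.42 at day 21. The receptor kinases Grk2 and Grk6 were at 0.94 ± 0.19 and 0.94 ± 0.14 at day 7. The kinase Grk3 was given as at least 2.46-fold lower at day 21, with signals of 9.26 uninjured and 8.35 at day 21 (technical SD 0.83). The lowest signals well above background were 8.31 and 10.3 on these arrays, so this value rests on a probe near the floor. The small GTPase Rac1 was at -1.01 ± 0.10 at day 7 and 1.18 ± 0.11 at day 21, lower at the earlier time and higher at the later.

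Among NF-kappaB and acute inflammatory genes, 6 of 12 passed 2-fold upwards at day 21 and 4 of 10 at day 7, with 0 lower at either time (medians 1.13 and 0.75). The cytokine Il1b was at 2.05 ± 0.13 at day 7 and 2.37 ± 0.34 at day 21. The subunits Nfkb2 and Rela were at 0.27 ± 0.25 and -0.12 ± 0.82 at day 7 and at -0.36 ± 0.29 and -0.40 ± 0.27 at day 21. Nfkbia, the inhibitor that NF-kappaB itself induces, was at 0.21 ± 0.14 at day 7 and 1.09 ± 0.15 at day 21. It passed 2-fold at the later time only, and there it lay within its error of 2-fold.

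Interferon response genes were mixed. At day 21, 6 of 16 were higher and 4 lower (median 0.19). At day 7, 4 of 11 were higher and 3 lower (median 0.37). Without the bounds, the medians were 0.17 at day 21 and 0.10 at day 7. The transcription factor Irf7 was at -1.73 ± 0.17 at day 7 and -1.16 ± 0.28 at day 21. Irf1 had lower bounds of 3.50-fold at day 7 and 3.16-fold at day 21. The ubiquitin-like Isg15 was at -2.66 ± 0.16 and -2.27 ± 0.16, and the antiviral genes Mx1 and Oas1a were at -1.10 ± 0.51 and -1.75 ± 0.30 at day 21. Stat2 at day 21 and Ifit2 at day 7 were within 2-fold, at -0.34 ± 0.58 and -0.16 ± 0.51. The 6 genes higher at day 21 were Irf1, Ifit2 at 1.07 ± 0.39, Ifngr1, Ifngr2, Psmb8 and Psmb9. Among hypoxia and repair genes tied to Cxcl12 and Cxcr4, 4 of 7 were higher at day 21 (median 1.08) and 1 of 3 at day 7. Hif1a, the hypoxia factor, was at 1.11 ± 0.15, its targets Adm and Ldha at 1.08 ± 0.07 and 1.32 ± 0.08, and Vegfa at -0.17 ± 0.43 at day 21, while Adm and Slc2a1 were at -0.88 ± 0.07 and -0.46 ± 0.05 and Tgfb1 at 1.88 ± 0.08 at day 7.

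For the 5 members well above background on all 3 arrays, the nearest named genes were sought among 5165 genes by the distance between their 2 log2 ratios. Cxcl1 lay nearest to Ccl2 (0.11), a monocyte-attracting CC chemokine at 0.55 and 3.28 for day 7 and day 21, and to Mrc1 (0.32), the macrophage mannose receptor, with 4 genes within 0.5. Cxcl12 lay nearest to Mgst2 and Dennd1c (0.11 and 0.13), with 14 genes within 0.5, and Cxcr4 to Hhex and Acp5 (0.24 and 0.27), with 16. Few genes lie as far from the bulk as these 3 members, so the small counts restate the size of their ratios. Cxcl12 was read here at the shared probe, at 3.98 for day 21, and not at its brighter probe. Cx3cl1 lay nearest to Cand1 and Dipk2a (0.092 and 0.11), with 109 genes within 0.5, and Cxcl9 to Aldh6a1 and Paqr6 (0.019 and 0.040), with 547. These rest on 2 ratios that share the uninjured array and are a description.

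**Figure D4:**
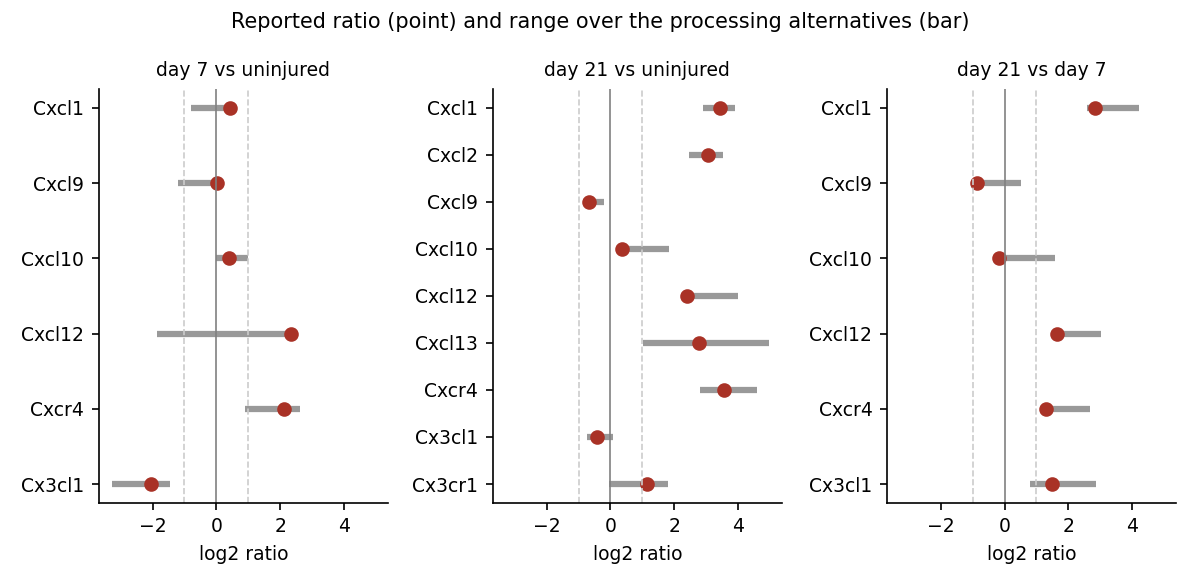
Log2 ratio of each member as reported (points) and its range over the processing alternatives (bars), in 1 panel per comparison, with dashed lines at 2-fold. At day 21 the bars of Cxcl1, Cxcl2, Cxcl12, Cxcl13 and Cxcr4 stay above 1, and that of Cx3cr1 reaches -0.03. At day 7 the low end of Cxcl12, at -1.86, comes from a row of the authors' deposited table that pairs different probes.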

How the data were processed

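The deposited scanner files hold spot intensity per probe, and the processed signal used here was background-subtracted by Agilent Feature Extraction, version 10.7.3.1 (uninjured, day 21) or 11.0.1.1 (day 7), per the file headers, while the submitters' processing notes name 10.7.3.1 alone. The authors' deposited table holds log2 values. Their normalization was not given in the sources used here. Its column medians were 7.64, 7.62 and 7.64, it ran in the direction of the scanner signals, and its centring stays unknown. Its rows are probes of the day 7 design, and 3957 of 9260 are not on the other design, so it served as an alternative only.

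Control spots and outlier spots (0.242% to 1.46%) were left out, a probe's spots were averaged as log2 values, and arrays were put on one scale by subtracting the 75th percentile. Probes were named by accession through RefSeq tables of GRCr8: 8032 shared probes (75.9%) and 17505 of the common design (42.7%). A gene was read at its brightest probe in the comparison. Where 1 array was not well above background, the bound set the other array against the higher of the dim probe's signal and that array's lowest signal well above background. A gene was called past 2-fold, without a test, since each group was 1 array. Scripts were tested on simulated data.

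The members and gene lists were chosen with earlier results of these data known. The text names every member, every further CXC and CX3C gene with a probe, and the 2 genes of nearest pattern for each member. From each other list it draws on the first 4 measured genes in written order plus any that went 2-fold against the list's median. Ctsk, Ctss, Ifngr1, Ifngr2, Psmb8, Psmb9, the day 21 value of Ifit2 and the markers given only as not above background were named after their values were seen. Some genes of these lists are not reported here. Protein features were not used here. Tools were Python 3.11.15 with pandas 2.3.3 and numpy 2.4.6, and R 4.3.3 with limma 3.58.1. Alternatives changed the scaling (median, quantile, cyclic loess, own design), background (normexp), threshold, probe rule and filters.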

Additional observations from a re-analysis of the deposited data

Results flagged for a closer look

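Ackr3 was at -1.64 at day 7 and 1.35 at day 21 against the uninjured artery, so the time points went opposite ways. The difference between them was not tested, since each time was 1 array.

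Probes found on the day 7 design only gave signals well above background that enter no comparison. They read 264 for Cxcl2, 303 for Cxcl12, 1276 for Cxcl16 and 1851 for Cx3cr1.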

How the results depend on the processing

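The limits of these values are 1 array a group, the other design at day 7, and dim probes, which normexp background correction pulls together. No paired analysis was possible because each group had 1 array and no test was made. The count of members at least 2-fold higher at day 7 was 2, and 1 with normexp background correction and with own-design scaling, Cxcr4 being lost in both. The count lower at day 7 was 1, and 2 in the authors' deposited table and with own-design scaling. The count higher at day 21 was 6, and 3 on shared probes only, where 6 members were measured, 7 with cyclic loess, which gained Cxcl10, and 5 with normexp and at a 3-fold threshold. The count lower at day 21 was 0, and 1 at a 1.5-fold threshold. From day 7 to day 21 the count higher was 4, 3 with normexp, which lost Cx3cl1, and 2 at a 3-fold threshold. It was 5 with own-design scaling, 6 of 8 measured in the authors' deposited table and 5 of 6 on its shared probes. The count lower in that comparison was 0, and 1 in the authors' deposited table and at a 1.5-fold threshold. Cxcl12 at day 7 turned to -1.86 in the authors' deposited table, whose row pairs different probes, and Cx3cr1 at day 21 turned to -0.035 with normexp correction. Normexp, with an offset of 50, was run on the median spot signal, and was chosen after seeing the data, as was the deposited table limited to shared probes. The median ratio over all genes above background on both arrays moved from -0.01 to -0.39 with median scaling and to -1.23 with own-design scaling at day 7. It moved from -0.20 to 0.28 with median scaling at day 21, and from -0.19 to 0.27 with median scaling and to 1.18 with own-design scaling from day 7 to day 21. Where no construction above shows it, the cause was not tested.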

Other observations

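Further CXC genes also had probes on the day 7 design only. Cxcl14 read 433 there and was well above background, while Cxcl6 (4.50), Cxcl17 (2.70), Cxcr2 (9.21) and Cxcr5 (13.8) were not. These signals have no counterpart on the other arrays and belong in no comparison.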
